A study of Mus musculus with 137 samples.

Results

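The translation initiation and elongation factors of mouse are described here by their transcripts in single 2-cell embryos. The members are all genes whose symbol starts with Eif or Eef and a digit, without pseudogenes and without Eif1a, Eif1ax and the Eif1ad genes. They number 68 of the 36113 gene symbols for which counts could be summed. The symbol rule used no measured value. It also takes in genes with other work: the helicase Eif4a3 of the exon junction complex and its copies Eif4a3l1 and Eif4a3l2, the synthetase complex subunit Eef1e1, and kinases and methyltransferases that act on the factors. Genes were therefore grouped by role.

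Polyadenylated RNA was measured in embryos of the B6129F1 cross by SmartSeq2, a full-length method primed with oligo-dT, and 1 library is 1 embryo. Zygotes were collected 5 h after fertilization and cultured in KSOM medium without an oil cover. From 6 h on, the medium held 0.1% DMSO, or SR1848 at 10 µM. SR1848 inhibits NR5A2, a nuclear receptor and transcription factor of the early embryo. The remaining embryos, called injected here, had SR1848 after NR5A2 mRNA (500 ng/µl) had been injected. The labels give 29 DMSO, 41 SR1848 and 67 injected libraries in 2 experiments. They record no group injected with another mRNA, so the effects of NR5A2 and of injection cannot be told apart, and they do not record parents, so a p value here measures spread between embryos that may be siblings.

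Values are CPM, the counts of a gene scaled to a fixed total of the counts paired with genes in a library, so each is a share of the RNA counted in an embryo: less of a transcript and more of all others cannot be told apart, nor can fewer cells and less RNA per cell. Before the results, 16 libraries were set aside. Libraries 1 to 8 labelled DMSO in experiment 2 held 88.8 to 5468 CPM of Nr5a2 and 47.7 to 7171 CPM of GFP, while libraries 1 to 8 labelled injected in experiment 2 held 82.0 to 156 CPM of Nr5a2 and at most 0.455 CPM of GFP. As groups, these 16 go against their labels. Another 7 libraries had low totals or few detected genes. The comparisons use the other 114 embryos: 18 DMSO (16 and 2 in the experiments), 40 SR1848 (16 and 24) and 56 injected (26 and 30), with 3351665 to 9264241 counts each. Values with the 16 and the 7 libraries are given beside some of the results, not beside every call they change. Among the 114, Nr5a2 lay at 84.2 to 191 CPM (median 111) in DMSO, 3.92 to 29.7 (median 13.3) in SR1848 and 5.40 to 8606 (median 3124) in injected embryos. GFP was at least 100 CPM in 42 of the 56 injected embryos and under it in 14.

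In translation initiation, eIF2 carries the initiator tRNA to the small ribosomal subunit, and eIF3 holds that subunit open for the mRNA. The eIF4 factors bind the cap of the mRNA and unwind it, and eIF1, eIF5 and eIF5B act at the start codon and in the joining of the subunits. During elongation eEF1A brings each aminoacyl-tRNA and eEF2 moves the ribosome on. The egg stores mRNA for many of these factors and translates them with little transcription, and the 2-cell stage is when the mouse embryo turns to transcripts of its own genome. Embryos at this stage can therefore hold a mixture of stored and new mRNA of many of these factors. Transcripts known from this stage were present: those of 29 genes known for 2-cell expression made up 0.402% (0.294 to 0.531%) of counts in DMSO embryos, 0.0569% (0.0238 to 0.387%) in SR1848 embryos and 0.157% (0.00314 to 0.783%) in injected embryos. Stored oocyte transcripts of 47 genes made up 1.26% (0.929 to 1.74%), 4.94% (3.29 to 7.33%) and 3.02% (1.67 to 6.57%). The summed share of the 2-cell list hides genes that went the other way. Of its 29 tested genes, 14 were lower and 10 higher in SR1848 than in DMSO embryos (edgeR adjusted p under 0.05), against 38.5% and 38.3% of all genes. In injected embryos 11 were lower and 13 higher than in DMSO (34.5% and 42.6% of all genes). Against SR1848, 19 were higher and 0 lower (28.9% and 16.0% of all genes). The shares of both lists move with every comparison below, and their part in the members' values was not tested. Markers of cumulus and granulosa cells and of spermatids were low, at medians of at most 0.00934% and 0.00257% of counts in any group, with 6 to 8 of 14 and 5 to 6 of 10 at a median of 0. Markers of blood and epithelium (Hba-a1, Krt8, Krt18 and 6 others) came to 0.0228% (0.0135 to 0.0362%) in DMSO, 0.00837% (0.00271 to 0.0274%) in SR1848 and 0.0317% (0.000596 to 0.0710%) in injected embryos.

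The stretches upstream of 2 members are shown because they held a motif of the kind NR5A2 binds. NR5A2 binds DNA as a monomer, at sites such as TCAAGGCCA. This motif, TCAAGGTCA, CCAAGGCCA and CCAAGGTCA were searched on both strands in the 250 bases before each RefSeq start (GRCm38.p6). Windows were found for 52 members (67 windows). Of these, 2 windows held a motif (2.99%), against 630 of 32851 windows of all genes (1.92%). The window of Eif4e, the cap-binding protein, is chr3:138525941-138526190 on the plus strand, with TCAAGGCCA starting 91 and 62 bases before the start; 0.0426% of all windows hold 2 or more motifs. The window of Eef2k, the kinase of eEF2, is chr7:120842581-120842830 on the plus strand, with 1 match on the opposite strand that begins 215 bases before the start. Each is given 5′ to 3′ with the motif in capitals; a match is a run of letters, not a bound site.
Eif4e: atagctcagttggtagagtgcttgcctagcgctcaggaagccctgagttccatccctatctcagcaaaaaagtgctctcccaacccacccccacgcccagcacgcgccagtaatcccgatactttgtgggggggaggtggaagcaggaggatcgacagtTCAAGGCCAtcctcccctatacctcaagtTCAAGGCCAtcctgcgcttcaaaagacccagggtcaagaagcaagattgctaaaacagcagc
Eef2k: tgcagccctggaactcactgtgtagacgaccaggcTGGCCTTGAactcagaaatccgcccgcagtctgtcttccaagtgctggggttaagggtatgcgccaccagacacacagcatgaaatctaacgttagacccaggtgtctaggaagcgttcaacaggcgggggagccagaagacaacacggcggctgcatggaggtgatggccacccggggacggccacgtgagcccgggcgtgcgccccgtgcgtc

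SR1848 embryos held less of most factors than DMSO embryos. The members together made up 1.52% (1.37 to 1.89%) of counts in DMSO embryos and 0.834% (0.639 to 0.962%) in SR1848 embryos, and these ranges do not overlap. Of the 66 members with enough counts to test, 48 fell and 11 rose (edgeR's quasi-likelihood test, Benjamini-Hochberg adjusted p under 0.05), against 38.5% of the 15126 genes tested that were lower and 38.3% that were higher. The median log2 fold change of the 66 was -1.94, and that of all tested genes 0.01. All 13 members called in the large scaffold eIF3 were lower, while the risers were scattered over the roles and include the oocyte form Eif4e1b, the repressor Eif4enif1 and the kinase Eef2k. In 28 members all 40 SR1848 embryos lay under the lowest DMSO embryo, and in 2, Eif4e1b and Eif4e3, all lay over the highest. How many of all genes separate in this way was not counted, so 28 has no background to be set against.

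The change held in both experiments: 46 members were lower and 11 higher in experiment 1 (of 65 tested), and 37 lower and 7 higher in experiment 2, which has only 2 DMSO embryos. Of all genes tested, 38.6% were lower and 36.9% higher in experiment 1, and 21.8% and 19.0% in experiment 2. With the 16 libraries under their labels 45 members were lower and 13 higher (40.7% and 32.6% of all genes). With the 7 low libraries 42 members were lower and 11 higher (33.7% and 40.3% of all genes). Of the 28 members called lower and tracked by name, 21 were so called under every alternative, and of the 11 called higher 2 were. Scaling sets where 0 lies. The median of all genes moved from 0.01 to -0.55 under DESeq2's size factors (relative log expression), to -0.13 under total counts and to -1.98 when scaled to the stored oocyte transcripts. Under these the members' split was 7 higher and 52 lower, 11 and 49, and 2 and 59. Of all tested genes 28.8% were higher and 47.0% lower, 35.9% and 40.6%, and 7.41% and 70.9% in that order. A rise is therefore a rise relative to the other transcripts: of the 11 risers, Eif4e1b and Eef2k were called higher under every scaling, Eif4e3, Eif4enif1, Eif2d, Eif2ak4 and Eef1akmt3 under all but the scaling to oocyte transcripts, and Eif4b, Eif2b1, Eif1 and Eef1a1 under neither that nor DESeq2's size factors.

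**Figure D1:**
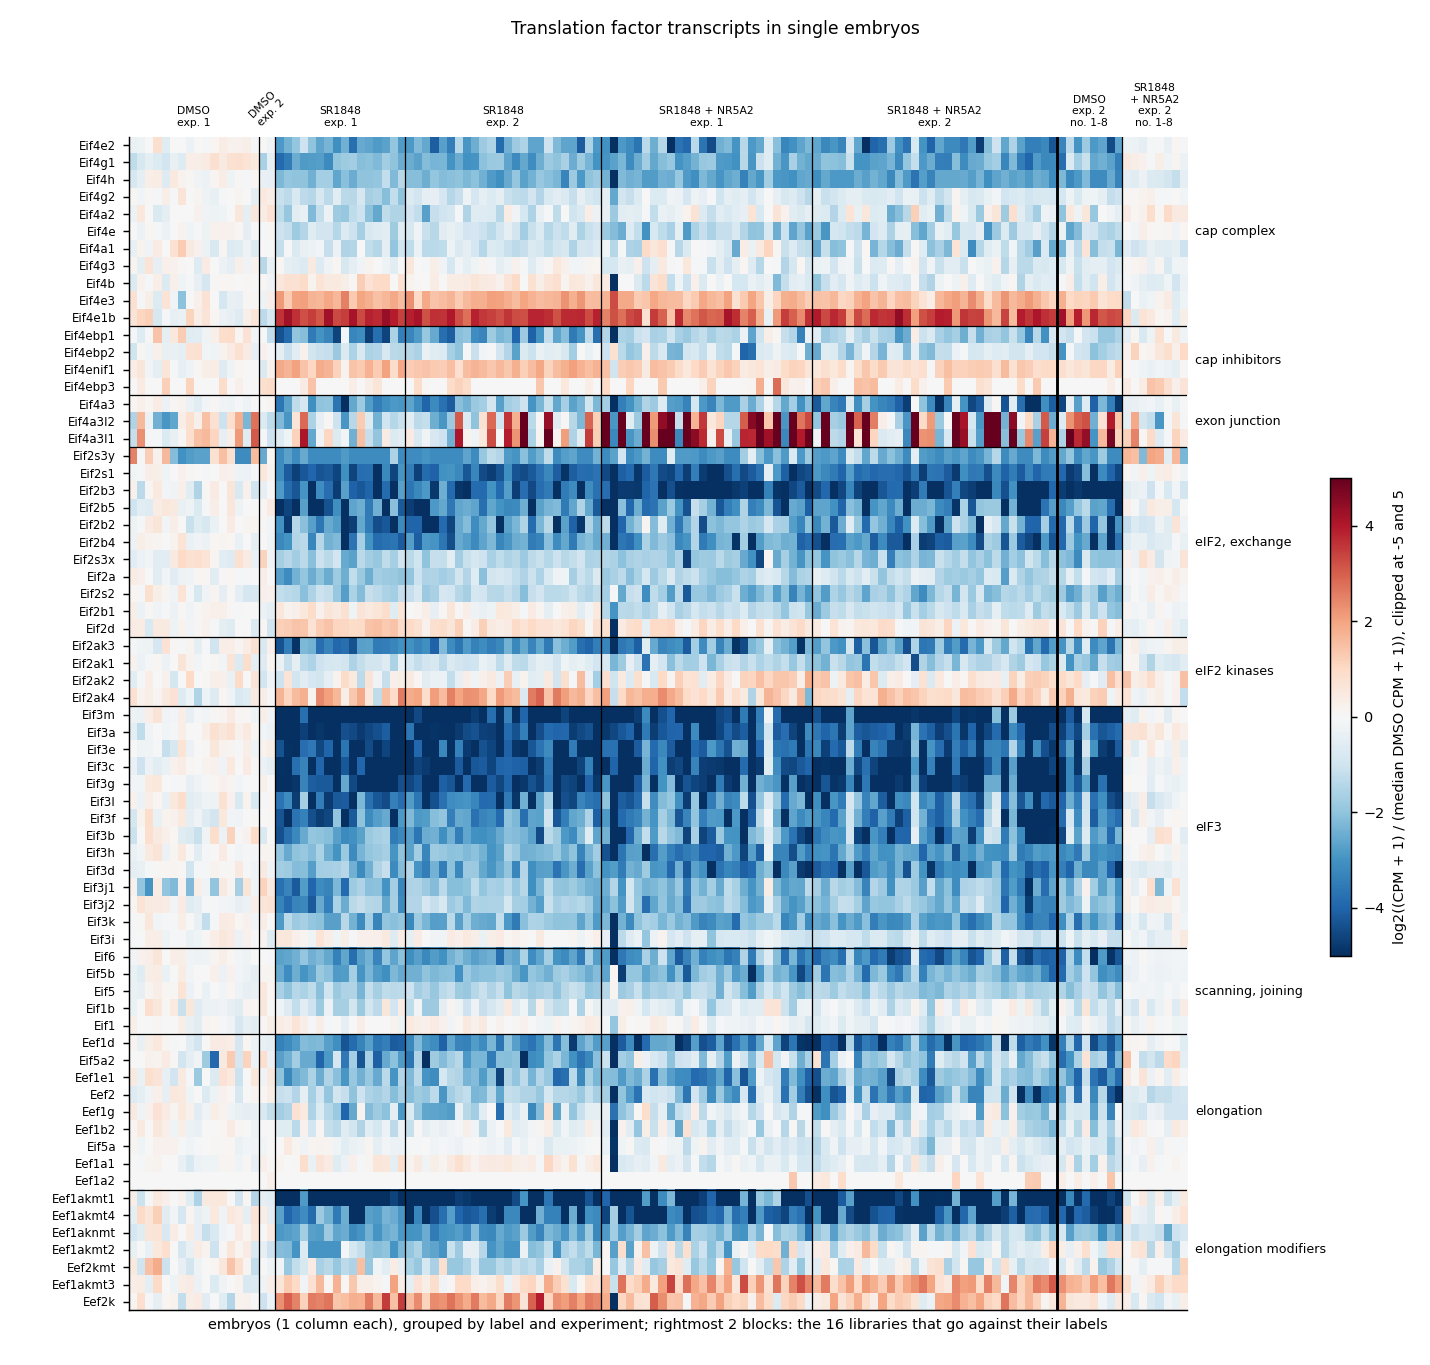
Each column is 1 embryo and each line 1 member by role; colour gives log2 of (CPM + 1) over (median DMSO CPM + 1), from -5 (lower than DMSO) to 5 (higher). SR1848 and injected embryos are alike low in most members, in particular in eIF3, and high in a few such as Eif4e1b, Eif4e3 and Eef2k.

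The subunits of eIF3, which binds the small ribosomal subunit and bridges it to the cap complex, had the lowest median log2 fold change of the roles. They made up 0.256% (0.200 to 0.332%) of counts in DMSO embryos and 0.0413% (0.0277 to 0.0559%) in SR1848 embryos. Of 14 tested subunits 13 fell and none rose, with a median of -2.73. Eif3a, the largest subunit (chr19:60761117-60790658), lay at 221 to 917 CPM (median 535) in DMSO, 0.230 to 49.4 CPM (median 19.2) in SR1848 and 1.05 to 279 CPM (median 28.2) in injected embryos. All 40 SR1848 embryos were under the lowest DMSO embryo, a log2 fold change of -4.76 ± 0.29 (SE; edgeR adjusted p = 2.57e-30). Eif3e, which takes part in binding of the ribosome and of eIF4G, had 66.1 to 238 CPM (median 147) in DMSO, 0 to 15.5 CPM (median 3.97) in SR1848 and 0 to 88.8 CPM (median 9.78) in injected embryos. Again no SR1848 embryo reached the DMSO range (-4.62 ± 0.35 SE, edgeR adjusted p = 8.45e-24). Eif3h, an accessory subunit, lay at 188 to 436 CPM (median 278), 26.5 to 98.6 CPM (median 63.3) and 1.99 to 221 CPM (median 33.7) in the same order. The SR1848 embryos were lower without overlap, with a log2 fold change of -2.18 ± 0.20 (SE; edgeR adjusted p = 3.85e-18).

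Eif3i, a subunit of the module that touches the mRNA channel, was the 1 subunit of the 14 that did not pass the test. It lay at 87.1 to 201 CPM (median 136) in DMSO, 86.2 to 218 CPM (median 159) in SR1848 and 0 to 155 CPM (median 76.4) in injected embryos. The DMSO and SR1848 ranges overlap, and the log2 fold change of 0.29 ± 0.16 (SE; edgeR adjusted p = 0.0961) did not pass the test; without replicate 2 of the injected embryos in experiment 1, a library with few detected genes that shares the estimate of spread, it was 0.27 (edgeR adjusted p = 0.0166). It also passed as higher with the 16 libraries, at 0.49 (edgeR adjusted p = 0.00144), and without the 14 injected embryos under 100 CPM of GFP, at 0.28 (edgeR adjusted p = 0.0111), and as lower in DESeq2, at -0.30 (DESeq2 adjusted p = 0.0371). Chosen after their values were seen, Eif3m, Eif3c and Eif3g stood lowest in SR1848 relative to DMSO beside Eif3a and Eif3e. Eif3m ranged over 138 to 287 CPM in DMSO and 0 to 17.3 CPM in SR1848 (-5.71 ± 0.60 SE, edgeR adjusted p = 1.79e-15), and the log2 fold changes of Eif3c and Eif3g were -4.42 and -4.38. About 28.7% of the 31-base words of Eif3m and 94.9% of those of Eif3j2 also occur in other genes, so their counts share reads by estimate.

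**Figure D2:**
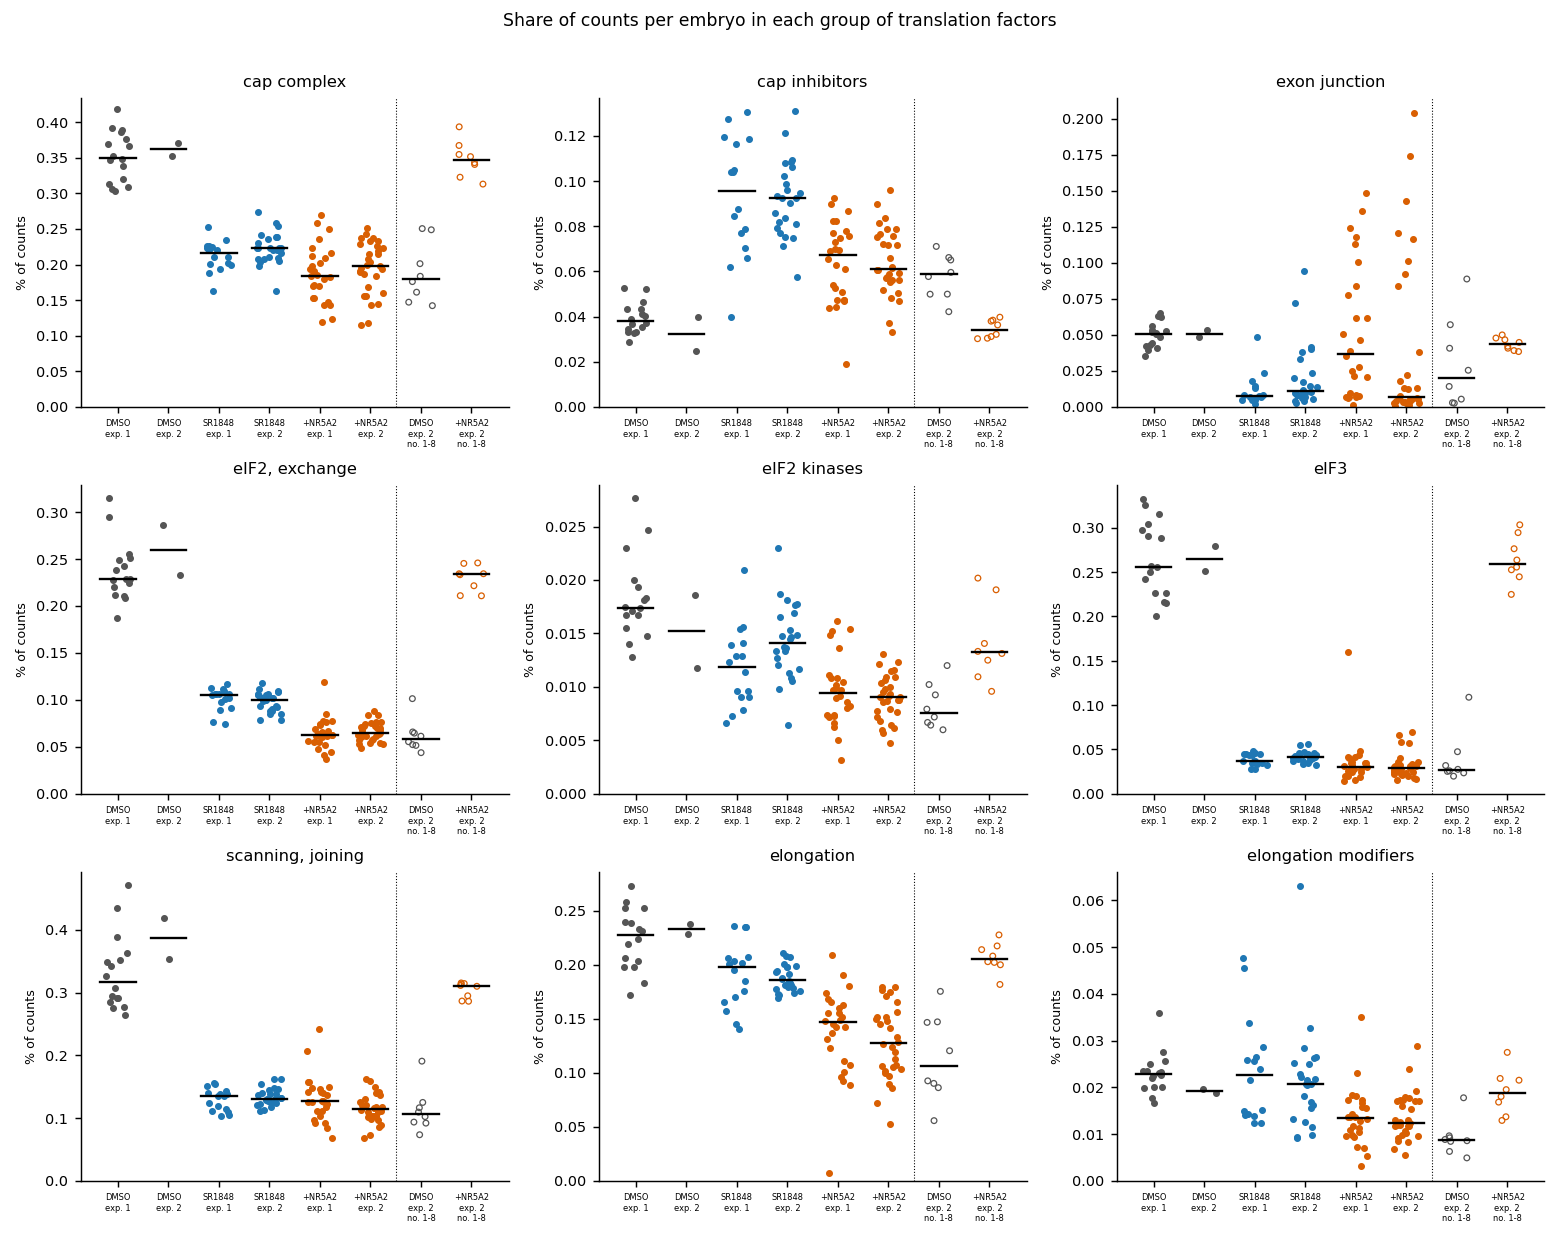
Each point is 1 embryo, by group, with the summed counts of the members of each of 9 roles as a percent of the embryo's counts, and lines at the medians. In eIF3 the DMSO embryos lie at 0.200 to 0.332% and the SR1848 embryos at 0.0277 to 0.0559%, whereas in the inhibitors of the cap-binding protein the SR1848 embryos lie higher. That sum is mostly Eif4enif1, and of the 3 inhibitors tested 1 was higher and 2 lower.

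The initiator tRNA carrier eIF2 and its exchange factor eIF2B, which reloads eIF2 with GTP, gave 9 members lower and 2 higher of 11, with a median log2 fold change of -2.44. Eif2s1, the alpha subunit that the stress kinases phosphorylate (chr12:78861819-78887010), lay at 336 to 602 CPM (median 412) in DMSO, 9.78 to 53.2 CPM (median 23.7) in SR1848 and 5.96 to 294 CPM (median 26.4) in injected embryos. Neither other group reached the lowest DMSO embryo, and SR1848 embryos were lower by a log2 fold change of -3.85 ± 0.21 (SE; edgeR adjusted p = 7.74e-33). Eif2s2, the beta subunit, changed less, with 341 to 1076 CPM (median 610.1), 90.8 to 345 CPM (median 239) and 32.6 to 586 CPM (median 174) in the same order. There 38 of 40 SR1848 embryos were under the DMSO range (-1.31 ± 0.18 SE, edgeR adjusted p = 1.08e-10). Within eIF2B, Eif2b1 (chr5:124570213-124579131), a regulatory subunit, moved apart from the other subunits, Eif2b2 to Eif2b5, which were all lower. It lay at 227 to 374 CPM (median 307) in DMSO, 203 to 579 CPM (median 373) in SR1848 and 38.5 to 226 CPM (median 130.0) in injected embryos. The SR1848 embryos overlap the DMSO range and 20 of 40 exceed it, a log2 fold change of 0.49 ± 0.12 (SE; edgeR adjusted p = 8.97e-05) that turned to -0.09 under DESeq2's size factors. Eif2b3, a subunit of the catalytic core, lay at 46.2 to 199.8 CPM (median 133), 0 to 23.9 CPM (median 8.38) and 0 to 15.6 CPM (median 3.78) in that order. No SR1848 embryo reached the DMSO range, with a log2 fold change of -3.75 ± 0.40 (SE; edgeR adjusted p = 5.47e-15).

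Alternative carriers of the initiator tRNA went different ways. Eif2a, which can deliver the initiator tRNA without GTP, fell from 150.1 to 287 CPM (median 223) in DMSO to 24.3 to 192 CPM (median 75.1) in SR1848 embryos, with 32.7 to 184 CPM (median 81.1) in injected ones (-1.59 ± 0.15 SE, edgeR adjusted p = 2.59e-18). Eif2d, which takes part in reinitiation and in recycling of ribosomes, rose from 33.4 to 89.8 CPM (median 64.8) to 66.9 to 185 CPM (median 125), with 0 to 138 CPM (median 88.2) in injected embryos. The SR1848 and DMSO ranges of Eif2d overlap in few embryos, 33 of 40 being over the highest DMSO value, and the log2 fold change was 1.26 ± 0.18 (SE; edgeR adjusted p = 4.65e-10), or -0.77 when scaled to stored oocyte transcripts.

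The gamma subunit of eIF2 is encoded on both sex chromosomes, and the copies were read apart. Eif2s3x (chrX:94188707-94212862) lay at 144 to 478 CPM (median 222) in DMSO, 33.6 to 152 CPM (median 86.3) in SR1848 and 7.81 to 242 CPM (median 61.8) in injected embryos. All but 1 SR1848 embryo were under the DMSO range, with a log2 fold change of -1.59 ± 0.18 (SE; edgeR adjusted p = 3.55e-14). Eif2s3y (chrY:1010543-1028847), which only embryos with a Y chromosome can transcribe, lay at 0 to 48.8 CPM (median 7.92), 0 to 2.69 CPM (median 0) and 0 to 5.37 CPM (median 0.281). It was over 1 CPM in 10 of 18 DMSO embryos, in 6 of 40 SR1848 embryos and in 14 of 56 injected embryos, and over 10 CPM in none of the SR1848 or injected embryos. The log2 fold change of SR1848 against DMSO was -4.63 ± 0.71 (SE; edgeR adjusted p = 5.02e-09). The sex of the embryos was not recorded in the labels, and the ranges overlap at 0.

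The kinases that phosphorylate the alpha subunit of eIF2, and so slow initiation, split. Eif2ak3, the kinase PERK of the endoplasmic reticulum, lay at 17.4 to 61.2 CPM (median 35.3) in DMSO and 0.216 to 7.48 CPM (median 2.75) in SR1848 embryos without overlap, and at 0 to 24.5 CPM (median 4.34) in injected embryos (-3.48 ± 0.32 SE, edgeR adjusted p = 2.20e-18 for SR1848 against DMSO). Eif2ak4, the amino acid sensor GCN2, went the other way, with 5.39 to 29.6 CPM (median 17.3) in DMSO, 6.52 to 141 CPM (median 59.7) in SR1848 and 2.83 to 92.8 CPM (median 37.3) in injected embryos. Although the ranges overlap, 35 of 40 SR1848 embryos were over the highest DMSO embryo, and the log2 fold change was 1.88 ± 0.23 (SE; edgeR adjusted p = 3.90e-12) (-0.21 when scaled to stored oocyte transcripts). Eif2ak1, the heme-regulated kinase, lay at 73.0 to 217 CPM (median 118), 39.0 to 101 CPM (median 62.6) and 4.52 to 88.04 CPM (median 41.6). It was lower in SR1848 embryos, with partly overlapping ranges and a log2 fold change of -0.75 ± 0.17 (SE; edgeR adjusted p = 2.56e-05). This call was lost with the 16 libraries, with the 7 low libraries and in experiment 2 alone.

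Among the cap-binding proteins the form that is made in most cells and the oocyte form moved in opposite directions. Eif4e (chr3:138526179-138559696) lay at 1313 to 2079.9 CPM (median 1776) in DMSO, 511 to 1573 CPM (median 908) in SR1848 and 218 to 1429 CPM (median 726) in injected embryos. The DMSO embryos were higher, with 38 of 40 SR1848 embryos under their range (-0.91 ± 0.17 SE, edgeR adjusted p = 1.14e-06). Eif4e1b (chr13:54783998-54788459), whose expression is known from oocytes, lay at 2.89 to 20.9 CPM (median 8.56), 63.6 to 194 CPM (median 117) and 6.30 to 204 CPM (median 92.9) in the same order. All 40 SR1848 embryos were over the highest DMSO embryo, with a log2 fold change of 3.64 ± 0.26 (SE; edgeR adjusted p = 1.48e-25). Per 100 CPM of Eif4e in the same embryo, Eif4e1b stood at a median of 0.609 (0.263 to 1.317) in the DMSO embryos of experiment 1 and at 14.0 (8.62 to 27.4) and 11.7 (7.01 to 21.6) in the SR1848 embryos of experiments 1 and 2. In injected embryos the medians were 10.7 (0.601 to 42.9) and 11.7 (4.61 to 39.5). The ratio did not overlap between DMSO and SR1848 embryos.

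The other cap-binding homologues also diverged. Eif4e3, an atypical cap-binding form, lay at 16.9 to 125 CPM (median 73.4) in DMSO, 146 to 426 CPM (median 245) in SR1848 and 90.2 to 704 CPM (median 223) in injected embryos. SR1848 embryos were higher without overlap (1.97 ± 0.17 SE, edgeR adjusted p = 1.24e-20), and the difference when scaled to stored oocyte transcripts was near 0 (-0.0013). Eif4e2, which binds caps and represses translation, lay at 70.5 to 185 CPM (median 107), 5.09 to 52.4 CPM (median 16.9) and 0 to 68.5 CPM (median 12.8). Every SR1848 and injected embryo was under the DMSO range, and the log2 fold change of SR1848 against DMSO was -2.25 ± 0.27 (SE; edgeR adjusted p = 8.47e-13). Eif4g2, a scaffold that works without the cap-binding protein, fell from 442 to 970.1 CPM (median 615) to 139.9 to 513 CPM (median 312), with 35 of 40 embryos under the DMSO range (-0.98 ± 0.11 SE, edgeR adjusted p = 3.47e-14). The cofactors of the helicase eIF4A differed: Eif4h went from 115 to 284 CPM (median 200.2) to 19.3 to 85.2 CPM (median 45.8) without overlap (-1.89 ± 0.13 SE, edgeR adjusted p = 2.53e-25), while Eif4b had 106 to 241 CPM (median 189.8) in DMSO and 189 to 445 CPM (median 265) in SR1848. Eif4b was higher in SR1848 embryos, with overlap and a log2 fold change of 0.81 ± 0.18 (SE; edgeR adjusted p = 2.90e-05), and lower (-1.28) when scaled to stored oocyte transcripts. In all, 7 of 11 members of the cap complex fell and 3 rose.

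**Figure D3:**
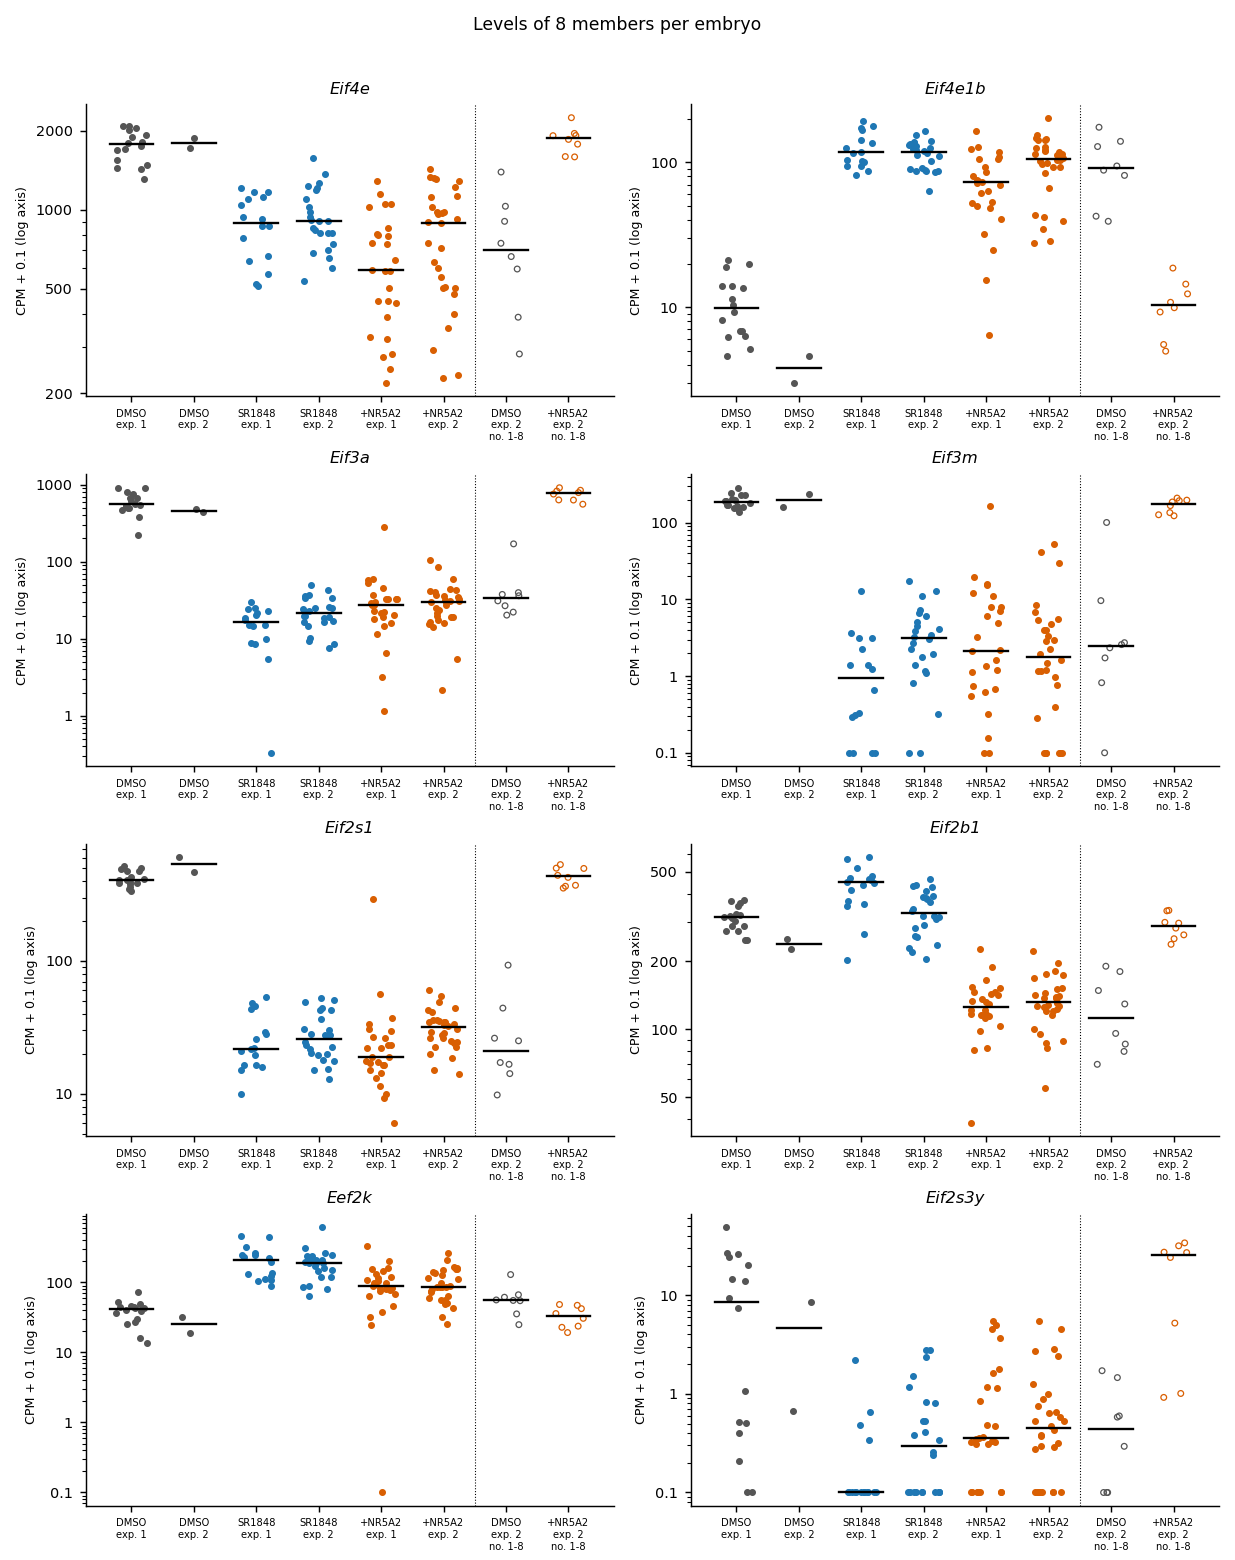
CPM + 0.1 on a log axis for 8 members, with 1 point per embryo by group and experiment and lines at the medians; open circles right of the dotted line are libraries 1 to 8 labelled DMSO and injected in experiment 2. Eif4e1b and Eef2k are higher and Eif3a, Eif3m and Eif2s1 lower in SR1848 than in DMSO embryos, and Eif2b1 is lowest in injected embryos.

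The proteins that hold back the cap-binding protein also moved apart. Eif4enif1, which binds Eif4e and keeps mRNA stored in granules of the oocyte, lay at 188 to 483 CPM (median 314) in DMSO, 352 to 1305 CPM (median 906) in SR1848 and 156 to 938 CPM (median 602) in injected embryos. In SR1848, 39 of 40 embryos exceeded the highest DMSO embryo, with a log2 fold change of 1.64 ± 0.13 (SE; edgeR adjusted p = 2.91e-23) that was -0.38 when scaled to stored oocyte transcripts. Eif4ebp1, the inhibitor released from the cap-binding protein when mTOR phosphorylates it, lay at 14.4 to 94.4 CPM (median 35.0), 0.395 to 32.4 CPM (median 3.34) and 0 to 45.6 CPM (median 11.4). SR1848 embryos were lower, 39 of 40 being under the DMSO range (-2.78 ± 0.32 SE, edgeR adjusted p = 1.78e-13). Its relative Eif4ebp2 changed by -0.83 ± 0.25 (SE; edgeR adjusted p = 0.00215), and Eif4ebp3 was too low to test.

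Factors of start codon choice and subunit joining were among the most abundant members. Per kilobase of transcript, the highest median levels in DMSO embryos were those of Eif4e (1187 CPM per kb), Eif5 (1128), Eif5a (915), Eif6 (559) and Eif1 (529.9). In SR1848 embryos the order was Eif5a (807), Eif4e (502), Eif1 (434), Eef1a1 (355) and Eif5 (344), and Eif6 had moved from rank 4 to rank 12 of 68. Eif5, which triggers GTP hydrolysis by eIF2 at the start codon, lay at 1317 to 2814 CPM (median 1747) in DMSO, 351 to 886 CPM (median 613) in SR1848 and 250.5 to 1901 CPM (median 592) in injected embryos. The SR1848 embryos were lower without overlap (-1.35 ± 0.13 SE, edgeR adjusted p = 2.23e-17). Eif6, which keeps the large subunit from joining and is needed to make it, lay at 659.6 to 1196 CPM (median 789), 56.7 to 263 CPM (median 128) and 14.0 to 503 CPM (median 76.1). No SR1848 or injected embryo reached the DMSO range, and SR1848 embryos had a log2 fold change of -2.38 ± 0.24 (SE; edgeR adjusted p = 1.39e-16). Eif5b, the GTPase of subunit joining, fell likewise (-2.15 ± 0.21 SE, edgeR adjusted p = 8.41e-17). Eif1, which guards the choice of start codon, lay at 231 to 496 CPM (median 407), 288 to 660.4 CPM (median 457) and 107 to 544 CPM (median 352). These ranges overlap, and the change of 0.39 ± 0.10 (SE; edgeR adjusted p = 1.94e-04) turned to -0.21 under DESeq2's size factors.

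The elongation factors gave a median log2 fold change of -0.98, nearer to 0 than that of eIF3 or eIF2. Eef1a1, which carries aminoacyl-tRNA, lay at 303 to 616 CPM (median 512) in DMSO, 332 to 1049 CPM (median 635) in SR1848 and 12.3 to 790.2 CPM (median 371) in injected embryos. SR1848 embryos were higher with overlap (0.49 ± 0.14 SE, edgeR adjusted p = 0.00127), and at -0.10 under DESeq2's size factors; about 51.5% of its 31-base words occur in other genes. Eif5a, which frees ribosomes stalled on proline stretches, lay at 890.3 to 1308 CPM (median 1132), 689 to 1605 CPM (median 1035) and 36.5 to 1354 CPM (median 783). Here the groups overlap and the log2 fold change was 0.07 ± 0.13 (SE; edgeR adjusted p = 0.637). Its paralog Eif5a2 fell, from 1.27 to 83.9 CPM (median 33.6) to 0 to 18.3 CPM (median 5.29) (-2.37 ± 0.33 SE, edgeR adjusted p = 3.76e-10). Eef2, which translocates the ribosome, lay at 199.9 to 502 CPM (median 347), 45.2 to 246 CPM (median 122) and 1.15 to 272 CPM (median 50.8). SR1848 embryos were lower, with overlapping ranges (-1.17 ± 0.27 SE, edgeR adjusted p = 5.48e-05). The exchange factor subunit Eef1d fell from 44.0 to 126 CPM (median 86.5) to 2.13 to 20.8 CPM (median 9.27) without overlap (-2.93 ± 0.31 SE, edgeR adjusted p = 2.25e-15). Eef1e1, a scaffold of the synthetase complex, fell as well (-2.14 ± 0.25 SE, edgeR adjusted p = 2.46e-13). Of 8 tested elongation members 5 fell and 1 rose, and Eef1a2, the form of muscle and nerve, was at a median of 0 in every group.

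The enzymes that modify elongation factors went in both directions, 5 of 7 lower and 2 higher. Eef2k (chr7:120842831-120907450), which phosphorylates eEF2 and so slows elongation, lay at 13.6 to 72.1 CPM (median 39.6) in DMSO, 62.9 to 614 CPM (median 195) in SR1848 and 0 to 334 CPM (median 87.4) in injected embryos. Most SR1848 embryos were higher, the ranges overlapping at their ends, with a log2 fold change of 2.63 ± 0.28 (SE; edgeR adjusted p = 4.42e-15). Among the methyltransferases of eEF1A, Eef1aknmt lay at 20.9 to 78.2 CPM (median 47.8), 3.28 to 13.7 CPM (median 6.15) and 2.83 to 46.4 CPM (median 11.5). SR1848 embryos were lower without overlap (-2.74 ± 0.18 SE, edgeR adjusted p = 2.98e-27). Eef1akmt4 fell from 32.7 to 136.9 CPM (median 59.6) to 0 to 16.1 CPM (median 4.49) (-3.35 ± 0.45 SE, edgeR adjusted p = 5.41e-11), and Eef1akmt2 was low throughout, at 2.75 to 12.8 CPM (median 6.77), 0 to 6.45 CPM (median 0.848) and 0 to 22.6 CPM (median 5.89) (-2.10 ± 0.44 SE, edgeR adjusted p = 9.46e-06). Eef1akmt3 was near 1 CPM, at 0.268 to 3.17 CPM (median 1.14) in DMSO and 0.256 to 7.54 CPM (median 2.01) in SR1848, and its change of 1.33 ± 0.32 (SE; edgeR adjusted p = 1.18e-04) became -0.22 with the 16 libraries under their labels.

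**Figure D4:**
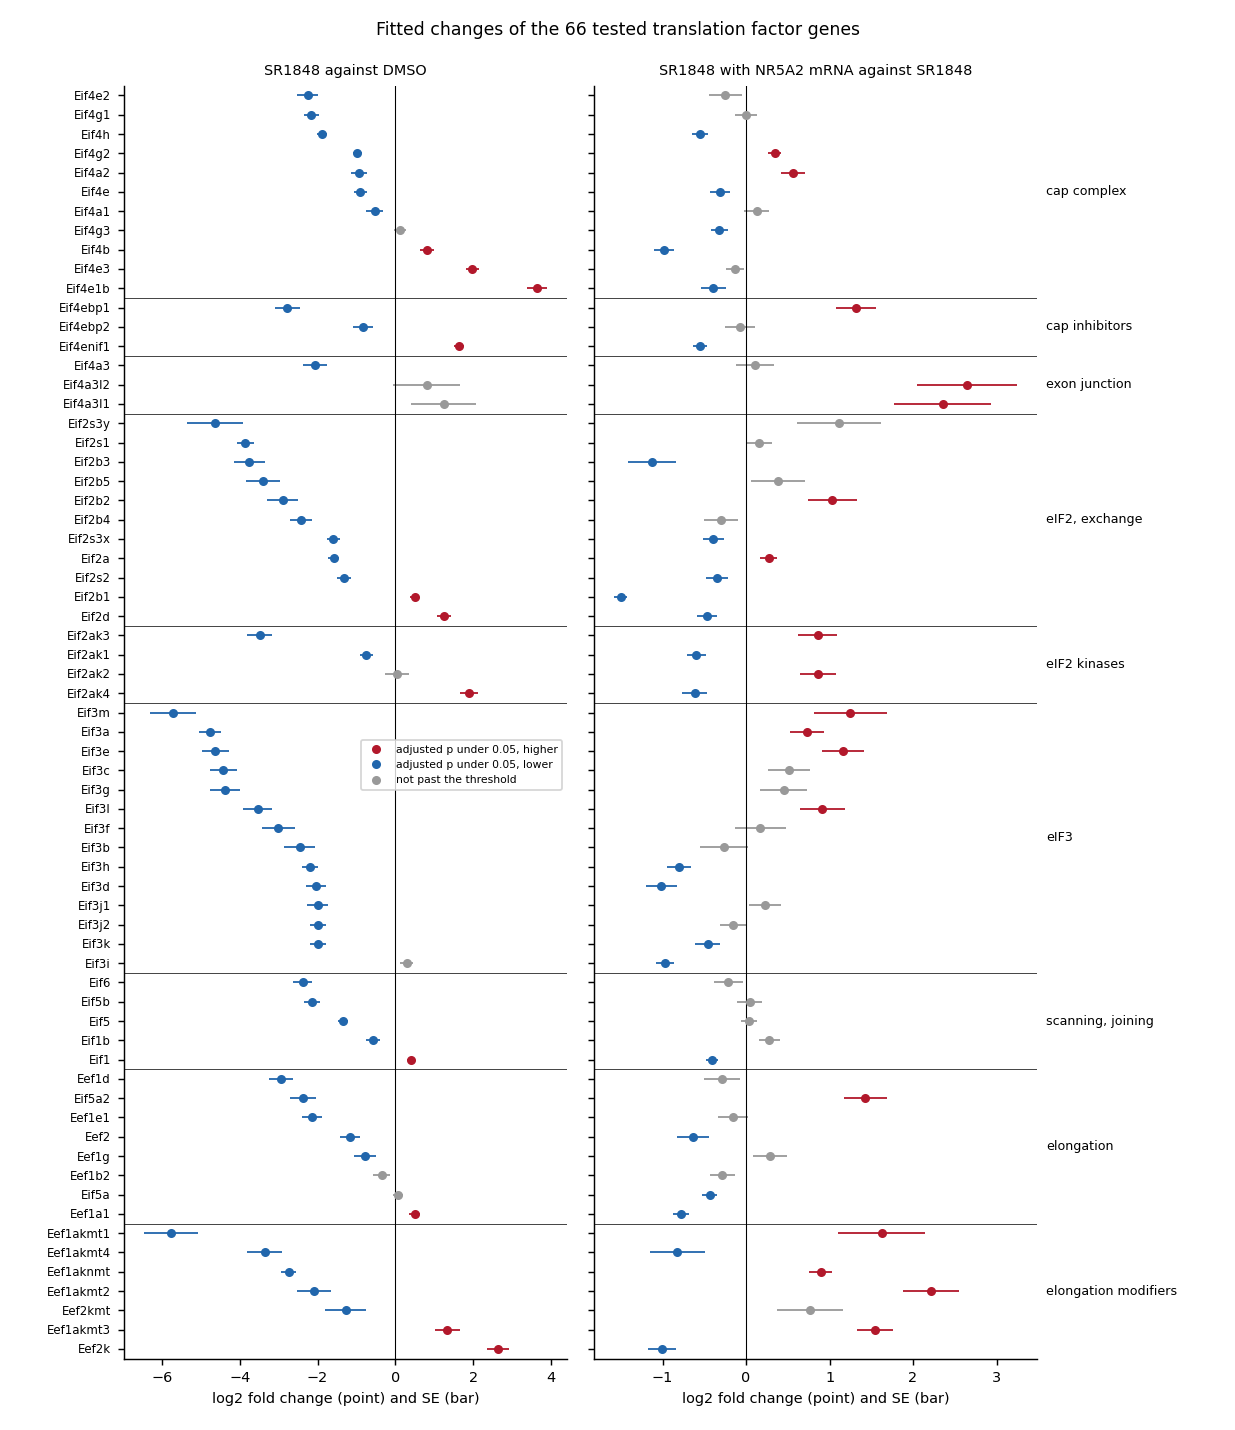
Log2 fold changes (points) with standard errors (bars) of the 66 tested members by role, for SR1848 against DMSO and for injected against SR1848. Most members lie left of 0 in SR1848 against DMSO, near -4 to -6 for Eif3a, Eif3e, Eif3m and Eef1akmt1, while the injected embryos lie on either side of 0.

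Injected embryos also held less of most factors than DMSO embryos, and relative to SR1848 embryos the members went either way. They made up 0.669% (0.417 to 1.05%) of counts in injected embryos, below the 0.834% median of SR1848 embryos. Against SR1848 embryos, 23 of the 66 members were lower and 18 higher, where 16.0% of all 15126 tested genes were lower and 28.9% higher, and the median log2 fold change was -0.03 (0.10 over all genes). For no member did the 2 groups separate fully, and only in Eif2b1 and Eif3i did all 56 injected embryos lie under the SR1848 median. Both comparisons share the SR1848 embryos, so values are set side by side without a test of their relation.

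The split depends on scaling, experiment and library more than the first comparison does. It was 21 higher and 15 lower under DESeq2's size factors, where 34.9% and 10.7% of all genes were called. Scaled to stored oocyte transcripts, which moved the median of all genes to 0.81, it was 46 and 3, or 69.7% and 4.55% of the members, against 69.6% and 1.51% of all genes, so the share of higher members equals the background. Total counts gave 18 and 23 (29.0% and 16.5% of all genes). Experiment 1 gave 19 higher and 14 lower (23.7% and 9.00% of all genes), experiment 2 gave 9 and 20 (24.9% and 10.3%), and the set with the 16 libraries under their labels gave 26 and 13 (34.9% and 15.3%). Without the 14 injected embryos under 100 CPM of GFP it was 14 and 29 (24.4% and 18.05%). The difference between the experiments was itself tested: no member of 63 passed in edgeR, where 12 had an unadjusted p under 0.05 and 0.343% and 0.678% of 12241 genes were higher and lower, and DESeq2 called 1 lower.

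Few single calls held throughout. Of the 12 members called higher and the 20 called lower against SR1848 that are tracked by name, Eef1akmt2, Eef1aknmt, Eif3e, Eif4ebp1 and Eif5a2 were higher and Eif2b1, Eif4b and Eef2k lower under each of the 16 alternatives. Eef1a1, Eif3i and Eif4enif1 lost only the call with scaling to stored oocyte transcripts. The calls of Eif4e, Eif4e1b, Eif2s2, Eif2s3x, Eef2 and Eef1akmt4 were lost under 6 to 8 of the 16, and those of the remaining 15 members under 1 to 4.

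Eif2b1 gave the clearest difference between injected and SR1848 embryos. With the levels given above, 54 of 56 injected embryos were under the lowest SR1848 embryo and all were under the lowest DMSO embryo. The log2 fold change was -1.50 ± 0.08 (SE; edgeR adjusted p = 2.66e-33) against SR1848 and -1.01 ± 0.11 (SE; edgeR adjusted p = 1.95e-15) against DMSO. It did not rest on 1 experiment: the injected embryos had 38.5 to 226 CPM in experiment 1 and 54.8 to 223 in experiment 2, against 203 to 579 and 205 to 464 CPM in SR1848 embryos. Eif2b3 was lower too (-1.13 ± 0.29 SE, edgeR adjusted p = 6.70e-04), although at 0.27 and not called with the 16 libraries under their labels. Eif2s2 and Eif2s3x were lower by log2 fold changes of -0.35 (edgeR adjusted p = 0.0186) and -0.39 (edgeR adjusted p = 0.00732), and Eif2s1 was not called (0.16 ± 0.16 SE, edgeR adjusted p = 0.434). Neither of these 2 lower calls held under DESeq2's size factors, in experiment 1 alone or with the 16 or the 7 libraries; with the 16, Eif2s2 was at -0.06 (edgeR adjusted p = 0.800) and Eif2s3x at -0.05 (edgeR adjusted p = 0.820). Eif2d was also lower (-0.47 ± 0.12 SE, edgeR adjusted p = 4.75e-04), a call lost with the 7 low libraries and when scaled to stored oocyte transcripts. Of the 11 members of eIF2 and its exchange factor 5 were lower and 2 higher (45.5% and 18.2%, against 16.0% and 28.9% of all genes).

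Of 14 eIF3 subunits 4 were higher and 4 lower in injected than in SR1848 embryos, or 28.6% each. Of all genes 28.9% were higher and 16.0% lower, so the share of higher subunits is near the background. Eif3a was higher by 0.73 ± 0.20 (SE; edgeR adjusted p = 0.00169) and Eif3e by 1.16 ± 0.26 (SE; edgeR adjusted p = 7.95e-05), while Eif3i (-0.97 ± 0.11 SE, edgeR adjusted p = 6.61e-13) and Eif3h (-0.80 ± 0.15 SE, edgeR adjusted p = 2.17e-06) were lower. The subunits that were higher stayed far below DMSO: the log2 fold changes of injected against DMSO embryos were -4.03 for Eif3a and -3.46 for Eif3e. In experiment 1 alone the count was 6 higher and 3 lower (23.7% and 9.00% of all genes), and in experiment 2 alone 1 and 4 (24.9% and 10.3%). Without the 14 embryos under 100 CPM of GFP it was 1 and 5 (24.4% and 18.05% of all genes). Eif3a was not called without those embryos, at 0.32 (edgeR adjusted p = 0.158), nor in experiment 2 alone, at 0.50 (edgeR adjusted p = 0.0699), and Eif3e was still called without them, at 0.67. Eif3h was not called with the 16 libraries, at -0.10 (edgeR adjusted p = 0.764). Eif3m rested on 1 library. Its log2 fold change of 1.25 ± 0.44 (SE; edgeR adjusted p = 0.0150) became 0.82 (edgeR adjusted p = 0.0744) without replicate 21 of experiment 1, an injected embryo with 53.2 CPM of Nr5a2, 1.35 CPM of GFP and an eIF3 share of 0.160%, the highest of the injected embryos. That leave-out was chosen after the data were seen.

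Among cap-binding proteins Eif4e was lower by -0.31 ± 0.12 (SE; edgeR adjusted p = 0.0274) and Eif4e1b by -0.39 ± 0.15 (SE; edgeR adjusted p = 0.0221). Neither call held without the 14 embryos under 100 CPM of GFP, where the values were -0.23 (edgeR adjusted p = 0.149) and -0.18 (edgeR adjusted p = 0.251). Eif4b (-0.98 ± 0.12 SE, edgeR adjusted p = 1.44e-11) and Eif4h (-0.55 ± 0.10 SE, edgeR adjusted p = 7.52e-07) were lower, and Eif4g2 was higher (0.34 ± 0.08 SE, edgeR adjusted p = 1.31e-04). The stored-mRNA repressor Eif4enif1 was lower (-0.55 ± 0.08 SE, edgeR adjusted p = 6.16e-09), and the inhibitor Eif4ebp1 was higher (1.31 ± 0.24 SE, edgeR adjusted p = 1.80e-06), though 37 of 56 embryos were still under the DMSO range. Eif4e3 and Eif4e2 did not pass the test, but without the same 14 embryos Eif4e2 passed as lower, with -0.68 (edgeR adjusted p = 1.82e-04) in place of -0.25. With the 16 libraries under their labels Eif4e (-0.14, edgeR adjusted p = 0.418) and Eif4h (-0.13, edgeR adjusted p = 0.534) did not pass. The log2 fold changes of all these lower members turned positive when scaled to stored oocyte transcripts, apart from Eif4b.

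In elongation, Eef1a1 (-0.78 ± 0.10 SE, edgeR adjusted p = 2.28e-11), Eif5a (-0.44 ± 0.09 SE, edgeR adjusted p = 1.43e-05) and Eef2 (-0.64 ± 0.19 SE, edgeR adjusted p = 0.00416) were lower and Eif5a2 was higher (1.43 ± 0.26 SE, edgeR adjusted p = 1.61e-06). The Eef2 call was lost under DESeq2's size factors, at -0.44 (edgeR adjusted p = 0.0670), with the 16 libraries, at -0.43 (edgeR adjusted p = 0.0772), and in experiment 1 alone, at -0.47 (edgeR adjusted p = 0.207). Eef2k, high under SR1848, was lower in injected embryos (-1.004 ± 0.17 SE, edgeR adjusted p = 3.74e-07) and still above DMSO (1.62 ± 0.26 SE, edgeR adjusted p = 1.80e-08). The methyltransferases Eef1akmt2 (2.22 ± 0.33 SE, edgeR adjusted p = 1.64e-08), Eef1akmt3 (1.54 ± 0.22 SE, edgeR adjusted p = 3.12e-09) and Eef1aknmt (0.89 ± 0.14 SE, edgeR adjusted p = 3.12e-08) were higher, and Eef1akmt4 was lower (-0.82 ± 0.33 SE, edgeR adjusted p = 0.0350). Of the kinases of eIF2, Eif2ak3 was higher (0.86 ± 0.23 SE, edgeR adjusted p = 0.00136), and Eif2ak4 (-0.62 ± 0.15 SE, edgeR adjusted p = 3.02e-04) and Eif2ak1 (-0.59 ± 0.12 SE, edgeR adjusted p = 7.87e-06) were lower. Eif1 was lower (-0.41 ± 0.07 SE, edgeR adjusted p = 1.63e-07), while Eif5, Eif5b and Eif6 had log2 fold changes of 0.04, 0.04 and -0.21 that did not pass. Without the 14 embryos under 100 CPM of GFP, Eif6 passed as lower at -0.87 (edgeR adjusted p = 4.94e-10).

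Eif4a3 and its copies spread widely between embryos. Eif4a3 itself (chr11:119288363-119300089), the RNA helicase at the core of the exon junction complex, lay at 323 to 619 CPM (median 485) in DMSO, 11.1 to 271 CPM (median 80.6) in SR1848 and 6.84 to 509.8 CPM (median 66.2) in injected embryos. It was lower in SR1848 embryos without overlap (-2.07 ± 0.31 SE, edgeR adjusted p = 3.27e-09). Eif4a3l1 (chr6:136327539-136329983) lay at 3.17 to 76.5 CPM (median 8.33), 0.591 to 461 CPM (median 8.06) and 0 to 956 CPM (median 47.4). Eif4a3l2 (chr6:116551141-116552502) lay at 0 to 48.2 CPM (median 6.51), 0 to 252 CPM (median 3.30) and 0 to 578 CPM (median 27.3). For both copies the highest embryo was an injected one under 100 CPM of GFP, and the ranges overlapped. In the 14 injected embryos under 100 CPM of GFP, the medians were 394 CPM (0 to 956) for Eif4a3l1 and 196 CPM (0 to 578) for Eif4a3l2. In the other 42 injected embryos they were 11.9 CPM (0 to 821) and 9.17 CPM (0 to 497). Eif4a3 itself had medians of 282 CPM in the 14 and 57.1 CPM in the 42. The split is not particular to these genes: 56 of the 68 members had a higher median in the 14 and 11 a lower one, counts not taken over all genes. Over all 56 injected embryos, the log2 fold changes of the copies against SR1848 were 2.35 ± 0.58 (SE; edgeR adjusted p = 3.83e-04) and 2.65 ± 0.60 (SE; edgeR adjusted p = 1.27e-04). Against DMSO they were 3.59 ± 0.85 (SE; edgeR adjusted p = 8.64e-05) and 3.45 ± 0.86 (SE; edgeR adjusted p = 2.03e-04). In experiment 2 alone neither copy was called against SR1848, at 1.58 (edgeR adjusted p = 0.0885) and 1.82 (edgeR adjusted p = 0.0514), or against DMSO, with 2 DMSO embryos. Without the 14 embryos under 100 CPM of GFP both copies were still called against SR1848, with log2 fold changes of 1.68 and 2.11. These copies share 60.8% and 76.5% of their 31-base words with other genes, and Eif4a3 shares 31.2%, so the counting program divided reads between them by estimate.

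**Figure D5:**
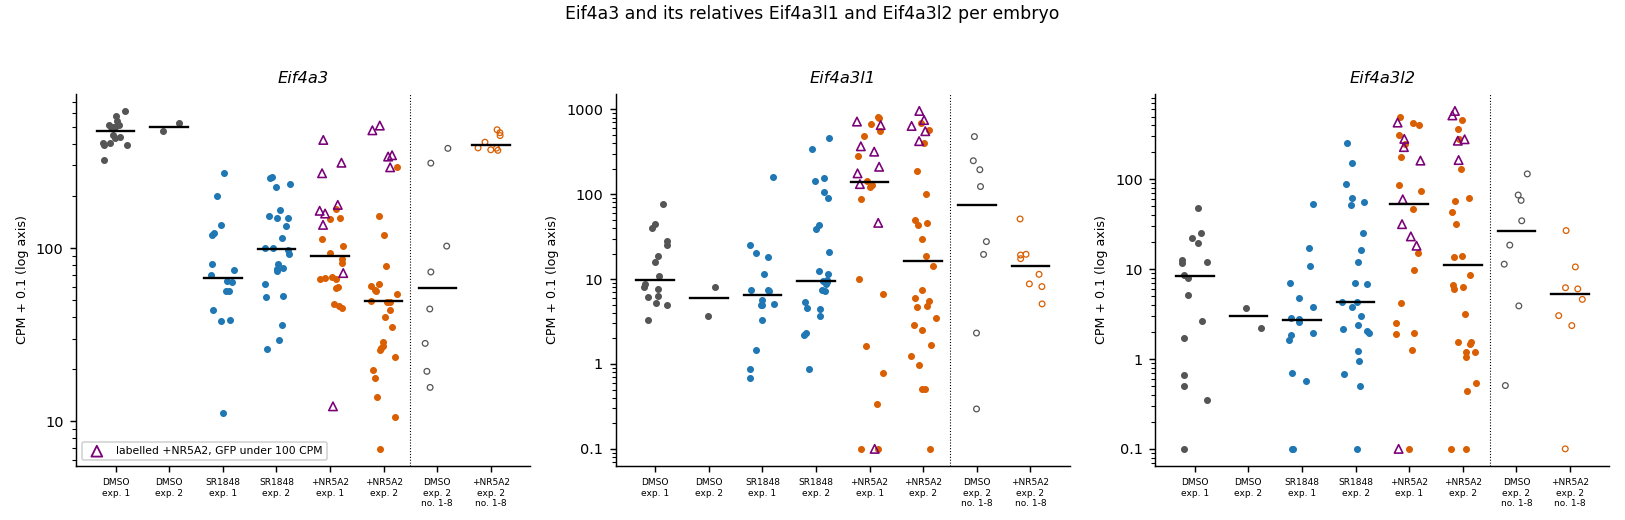
CPM + 0.1 on a log axis of Eif4a3, Eif4a3l1 and Eif4a3l2, with 1 point per embryo by group; triangles are injected embryos with less than 100 CPM of GFP. The DMSO embryos lie together, at 323.5 to 619.5 CPM for Eif4a3, and the injected embryos spread from 0 to 956 CPM for Eif4a3l1.

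Injected embryos had 47 members lower and 10 higher than DMSO embryos, where 34.5% of the tested genes were lower and 42.6% higher. The median log2 fold change was -1.72 for the members and 0.32 for all genes. All 14 eIF3 subunits were lower, and the risers again included Eif4e1b (3.24 ± 0.25 SE, edgeR adjusted p = 3.34e-23) and Eif4e3 (1.84 ± 0.16 SE, edgeR adjusted p = 7.18e-20). In 12 members, Eif2s1 and Eif2b1 among them, every injected embryo was under the lowest DMSO embryo. Counted per embryo, a median of 43 members in experiment 1 (21 to 54) and 44 in experiment 2 (31 to 48) were under the lowest DMSO value. In SR1848 embryos the medians were 44.5 (37 to 48) and 41 (38 to 46). Neither the 12 separated members nor these counts per embryo were set against the same counts over all genes. The call for Eef1a1 (-0.29 ± 0.13 SE, edgeR adjusted p = 0.0383) was lost without DMSO replicate 9 of experiment 2, at -0.26 (edgeR adjusted p = 0.0693), and also in either experiment alone, with the 16 libraries, at -0.08 (edgeR adjusted p = 0.533), and with the 7 low libraries.

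The summed gene values hide shifts between transcripts of a gene in a few members. In Eef1akmt2 a retained-intron transcript of 811 bases held 19.6% of the gene's mean CPM in DMSO embryos, 28.7% in SR1848 and 79.3% in injected embryos, and its protein-coding transcript held 54.4%, 59.1% and 14.5%. For Eif3a a retained-intron transcript of 3085 bases held 0.37%, 2.31% and 13.2% in that order. The gene values given above include these transcripts, which do not encode the protein. In the authors' deposited table of injected against SR1848 embryos, 340 of the 430 transcripts of members carry an adjusted p and 87 are under 0.05, 36 of them up and 51 down. The most negative shrunken log2 fold changes among these 87 in the authors' deposited table are -1.80 for the transcript of Eif2b1 that holds 96.3 to 98.6% of the gene's mean CPM, -1.54 for one of Eif2b3, -1.52 for one of Eif4b and -1.41 for one of Eef2k. The most positive in the authors' deposited table are 6.29 for a transcript of Eef1aknmt annotated to nonsense-mediated decay, 3.35 for the retained-intron transcript of Eef1akmt2, 3.00 for a transcript of Eif5a and 2.79 for that of Eif3a. The Eef1aknmt transcript held 54.5% of the gene's mean CPM in DMSO, 0.0711% in SR1848 and 7.62% in injected embryos. The Eif5a transcript held 1.43%, 0.0620% and 0.975% of its gene, whose main transcript stands at -0.70 in the authors' deposited table.

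Of 35 other genes of translation and its control, 21 fell and 10 rose in SR1848 against DMSO embryos, with a median log2 fold change of -1.69. These are 60% and 28.6% of the list, against 38.5% and 38.3% of all genes. Abce1, which splits ribosomes after termination, lay at 131 to 374 CPM (median 288) in DMSO, 6.02 to 62.4 CPM (median 27.1) in SR1848 and 7.18 to 168 CPM (median 38.9) in injected embryos. SR1848 embryos were lower without overlap (-3.45 ± 0.20 SE, edgeR adjusted p = 3.03e-32), and injected embryos were higher than SR1848 embryos (0.84 ± 0.14 SE, edgeR adjusted p = 3.92e-07). Abcf1, an ATPase that binds eIF2, lay at 238 to 532 CPM (median 318), 0 to 39.6 CPM (median 17.2) and 0.224 to 77.4 CPM (median 12.7), likewise without overlap between DMSO and SR1848 (-4.10 ± 0.27 SE, edgeR adjusted p = 1.58e-27). Higher in SR1848 embryos were the regulators of stored mRNA Cpeb1, which controls the length of poly(A) tails, and Pabpc1l, the poly(A)-binding protein of the egg, both also on the list of stored oocyte transcripts. Pabpc1l lay at 0 to 12.8 CPM (median 4.74), 51.9 to 332 CPM (median 104) and 0 to 110.1 CPM (median 38.2), a log2 fold change of 4.78 ± 0.36 (SE; edgeR adjusted p = 7.95e-24) for SR1848 against DMSO and -1.61 ± 0.19 (SE; edgeR adjusted p = 5.61e-12) for injected against SR1848. Cpeb1 changed by 1.77 ± 0.12 (SE; edgeR adjusted p = 4.62e-26) and -0.35 ± 0.08 (SE; edgeR adjusted p = 9.05e-05) in the same order. In injected against SR1848 embryos 9 of the 35 were higher and 8 lower (25.7% and 22.9%, near the 28.9% and 16.0% of all genes), Pabpc4 (-0.77 ± 0.11 SE, edgeR adjusted p = 9.35e-09) and the eIF4A inhibitor Pdcd4 (-1.02 ± 0.18 SE, edgeR adjusted p = 9.64e-07) among the lower. Against DMSO 8 were higher and 23 lower (22.9% and 65.7%, against 42.6% and 34.5% of all genes).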

How the data were processed

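Polyadenylated RNA of single embryos was deposited as a count table of 119358 transcript entries. Per the submitters' processing notes, bcl2fastq, Trim Galore 0.6.2, kallisto 0.46.1, R 3.5.1 and DESeq2 1.32.0 were used, with the builds mm10 and hg19; which build served which step was not given in the sources used here. Values of the deposited table are expected counts (estimated counts of kallisto, 26.3% of them not whole, tolerance 1e-9). The authors' deposited table of injected against SR1848 embryos gives, per the file headers, log2 fold changes with their errors, p-values with adjusted p-values, and a mean normalized signal per transcript; its text calls were not used. Column names with the prefixes C88 and ComS were read as injected and SR1848 from the sets of sample numbers. The protocol keeps no strand and no molecular identifiers, and reads shared by near-identical copies are split by kallisto's estimate, so intervals cover no such error.

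Transcripts were paired with genes by the authors' deposited table and GENCODE M21 (GRCm38), which covered 99.3% of counts; 0.557% were not paired and 5 entries (GFP among them) were kept apart. Counts were summed by symbol and rounded. Libraries counted as low had fewer counts than 1 in 5 of the median library, or fewer detected genes than 1 in 2 of it. Totals ran from 100513 to 9264241 counts, and no pair of libraries was identical. Fold changes, SE and p came from edgeR 4.0.16 (R 4.3.3; TMM scaling, filterByExpr, quasi-likelihood test, group and experiment as terms, all 3 groups in the fit; Benjamini-Hochberg over 15126 genes, threshold 0.05). CPM values carry no TMM factor, so a ratio of medians can differ from a fitted fold change. The difference between experiments was an interaction in the SR1848 and injected embryos. DESeq2 1.42.0, other scalings and filters, single experiments, the left-out libraries and a block by embryo number were alternatives.

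Named members are, per role, the 3 with the highest mean CPM and, per comparison, the 2 with the smallest p among those past the threshold, with Eif4e, its homologues, Eif2s3x and Eif2s3y always named; of the other translation genes the 4 with the smallest p per comparison were eligible. The members and lists were chosen with earlier results of these data known. Same-numbered embryos of different groups did not deviate together (65 pairs, correlations -0.34 to 0.33), so numbers do not pair them.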

Additional observations from a re-analysis of the deposited data

Results flagged for a closer look

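Libraries 1 to 8 labelled DMSO in experiment 2 were used in no main comparison. In 5 of the named members their median was over the highest of the 18 DMSO embryos. The other members were not searched, and no share of all genes was counted. Eif4e1b, the oocyte form of the cap-binding protein, had a median of 91.28 CPM (39.1 to 175), and the highest DMSO embryo had 20.9 CPM. Eif4enif1, the repressor bound to the cap-binding protein, had 555.1 CPM (406 to 692) against at most 483 CPM. Eif4e3 had 152.5 CPM (119 to 255) against at most 125 CPM. Eif2ak4, the amino acid sensing kinase, had 32.9 CPM (14.6 to 61.8) against at most 29.6 CPM. Eef1akmt3, a methyltransferase of eEF1A, had 7.134 CPM (4.17 to 12.4) against at most 3.165 CPM. In all 5 the 8 libraries lie within the span of the 56 injected embryos. No group of 4 to 10 libraries was left in the comparisons, so none was searched for single outlying embryos.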

How the results depend on the processing

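Of 2523 values of named members under an alternative, 2321 kept their side of the threshold with no called value changing sign (114 of these were uncalled in both and differ in sign), 116 lost and 34 gained the call, and 52 changed sign with a call in at least 1 of the 2, 33 of these when scaled to stored oocyte transcripts. The cause of these changes was not tested, beyond the number of samples or the scaling that each setting states. In SR1848 against DMSO the members called higher were 11, and 7 with relative log expression, 7 with DESeq2, 2 when scaled to stored oocyte transcripts and 7 in experiment 2. Of all tested genes 38.3% were higher, and 28.8%, 29.4%, 7.41% and 19.0% in that order. In injected against SR1848 embryos, 18 higher became 46 when scaled to stored oocyte transcripts and 9 in experiment 2, where 28.9%, 69.6% and 24.9% of all genes were higher. The 23 lower became 15 with relative log expression, 15 with DESeq2, 3 when scaled to stored oocyte transcripts, 13 with the 16 libraries, 13 with the low libraries, 11 with all libraries and 14 in experiment 1. Of all genes 16.0% were lower, and 10.7%, 11.8%, 1.51%, 15.3%, 10.7%, 13.5% and 9.00% in that order. In injected against DMSO embryos, 10 higher became 5 when scaled to stored oocyte transcripts, where 17.3% of all tested genes were higher. For the difference between experiments, 0 higher became 1 with the 16 libraries, 2 with the low libraries and 6 with all libraries. These are 1.56%, 3.17% and 9.38% of the members tested, against 0.634%, 2.95% and 4.10% of all genes. With DESeq2 0 lower became 1, or 1.59%, against 1.86% of all genes. Leaving out DMSO replicate 9 or 10 of experiment 2, or injected replicate 2 or 21 of experiment 1 (the latter 2 chosen after the data were seen), gave 11 to 12 higher and 48 lower, 17 to 19 and 23, and 10 and 46 to 48 in the order of the 3 comparisons. Embryo numbers do not pair the samples; with a replicate block by number the counts were 11 and 48, 11 and 22, and 8 and 49, and only the 11 higher in injected against SR1848 moved by over 1.5 times. With that block Eif6 (-0.63) and Eif4e2 (-0.63) were called lower against SR1848, and Eif4a3l1 was not called against SR1848 (1.76) or DMSO (2.07).

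Signs that changed with a call in SR1848 against DMSO were, with relative log expression, Eif2b1 -0.093, Eef1a1 -0.10, Eif1 -0.21 and Eif5a -0.53, and with DESeq2 Eif2b1 -0.093, Eef1a1 -0.10, Eif1 -0.21, Eif3i -0.30 and Eif5a -0.53. When scaled to stored oocyte transcripts they were Eif4e3 -0.0013, Eif2ak4 -0.21, Eif4enif1 -0.38, Eef1akmt3 -0.67, Eif2d -0.77, Eif4b -1.28, Eif2b1 -1.55, Eef1a1 -1.58, Eif1 -1.645, Eif3i -1.79 and Eif5a -1.98. That scaling gave for injected against DMSO embryos Eif2ak4 -0.0578, Eif4enif1 -0.23, Eif2d -0.54 and Eef1akmt2 -1.02. For injected against SR1848 embryos it gave Eif3h 0.0275, Eif2ak1 0.0615, Eef2 0.14, Eif4enif1 0.15, Eif2ak4 0.15, Eif4h 0.1953, Eif2d 0.23, Eif5a 0.23, Eif2s2 0.26, Eif4e1b 0.26, Eif1 0.28, Eif2s3x 0.32, Eif4e 0.35, Eif4e3 0.45, Eif4e2 0.50, Eif4ebp2 0.56, Eif6 0.64 and Eef1e1 0.64. With the 16 libraries Eef1akmt3 was -0.22 in SR1848 against DMSO, and Eif2b3 0.27 and Eef1akmt4 0.86 in injected against SR1848. With all libraries Eif2b3 was 0.17 and Eef1akmt4 0.84 in the same comparison, Eif2a 0.77 in injected against DMSO and 4.05 in the difference between experiments. With the low libraries Eif2a was 0.0129 and 4.55 in those. Without injected embryos under 100 CPM of GFP, Eif4a3 was -0.63 against SR1848. Members near 1 CPM, such as Eef1akmt3 and Eif2s3y, rest on few counts per embryo.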

Other observations

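The 16 libraries set aside are given here as values. Libraries 1 to 8 labelled DMSO in experiment 2 held 0.598% (0.467 to 0.951%) of counts in the members and 0.0267% (0.0199 to 0.109%) in eIF3 subunits, and a median of 45 members per library (31 to 49) were under the lowest of the 18 DMSO embryos. Libraries 1 to 8 labelled injected in experiment 2 held 1.46% (1.40 to 1.55%) in the members and 0.260% (0.225 to 0.303%) in eIF3 subunits. In them a median of 3.5 members (2 to 8) were under the lowest DMSO embryo, a count not taken over all genes. In the former, Eif2s1, the alpha subunit of eIF2, lay at 9.70 to 92.9 CPM (median 21.0), Eif2b1 at 69.9 to 190.4 CPM (median 113) and Eif3a at 20.1 to 170.2 CPM (median 33.5). In the latter the same genes lay at 353 to 531 CPM (median 433), 238 to 337 CPM (median 288) and 558 to 912 CPM (median 772). The Y-linked Eif2s3y lay at 0 to 1.62 CPM (median 0.338) in the former and 0.821 to 33.8 CPM (median 25.5) in the latter. The ratio of Eif4e1b per 100 CPM of Eif4e was 13.2 (4.11 to 35.9) and 0.529 (0.304 to 1.04).

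Of the paralog pairs below, Eif5a2 to Eif5a and Eif4g1 to Eif4g3 had medians that differed between DMSO and SR1848 embryos, with overlapping ranges. Eif5a2, a paralog of Eif5a, stood at a median of 2.75 (0.107 to 7.12) per 100 CPM of Eif5a in the DMSO embryos of experiment 1. It stood at 0.414 (0.0764 to 1.855) and 0.603 (0 to 1.338) in the SR1848 embryos of experiments 1 and 2. In the injected embryos it stood at 1.72 (0 to 16.5) and 1.48 (0.263 to 13.1). Eif4g1, the main scaffold of the cap complex, stood at 593 per 100 CPM of Eif4g3 in the DMSO embryos of experiment 1, at 120.1 and 101 in SR1848 embryos, and at 131 and 131.5 in injected embryos. These CPM ratios are not corrected for transcript length and serve only to compare groups. Of the other translation genes, Paip1, which binds the poly(A)-binding protein, differed between the experiments in injected against SR1848 embryos by 1.23 ± 0.34 (SE; edgeR adjusted p = 0.0455) on the log2 scale.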
